A study of Mus musculus with 9 samples.

Results

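The neuroectoderm markers were 10 genes listed by name: *Sox1*, *Sox3*, *Pax6*, *Nes*, *Zic1*, *Six3*, *Lhx2*, *Tubb3*, *Neurog2* and *Gbx2*. Each symbol matched 1 Ensembl gene ID, so that they made up 10 of the 55471 gene IDs counted. Their RNA was measured by bulk RNA sequencing of 9 libraries from embryoid bodies (EBs), clusters grown from mouse embryonic stem (ES) cells in which differentiation begins. WT EBs came from the parental E-14 ES cell line, and *Tnfaip2*-/- EBs (KO) came from a single CRISPR-Cas9 clone of that line, with a frameshift and a premature stop in *Tnfaip2*, a gene induced by tumour necrosis factor. The third group, KO_PAPC, was the same *Tnfaip2*-/- line grown with palmitic acid (PA), a saturated fatty acid, and palmitoyl-L-carnitine (PC), the form in which palmitate enters mitochondria, at 8 μM each. All EBs were formed in hanging drops over 3 days and then left to differentiate for 3 days on gelatin in MEF medium, and each group had 3 libraries. WT EBs with PA/PC were not analysed here, so the effect of PA/PC was seen only on the *Tnfaip2*-/- background, and a single clone cannot separate the deletion from other differences between the clone and its parent. The methods also describe hanging drops of WT and *Tnfaip2*-/- cells in ES cell medium, which holds leukemia inhibitory factor, but treated drops in MEF medium with PA/PC. Untreated KO EBs are described as receiving a vehicle, and each of their libraries as a pool of EBs. If the drops of these KO EBs were made in ES cell medium, PA/PC and the medium of the first 3 days cannot be told apart.

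Neuroectoderm is the germ layer derivative from which brain and spinal cord arise, and ES cells reach it by default when signals that keep them pluripotent or push them to mesoderm and endoderm are low. *Sox1* is the earliest transcription factor that is largely restricted to neural plate cells, whereas its relative *Sox3* is also made in the epiblast, and the homeobox gene *Gbx2* is known both as a hindbrain patterning factor and as a gene of naive pluripotent ES cells. *Pax6*, *Six3* and *Lhx2* pattern the anterior neural plate and eye field, *Zic1* marks the neural plate and its dorsal border, *Nes* encodes the intermediate filament nestin of neural progenitors, *Neurog2* is a proneural factor that starts neurogenesis, and *Tubb3* encodes the beta-tubulin of neurons.

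Total counts ranged from 27362913 to 28914312 per library, and all pairs of replicates differed by more than counting noise (chi-square over degrees of freedom of 1.22 to 3.45). Levels are given as CPM, counts scaled to the same library total. A count of 0 allowed up to 3 counts, or 0.104 to 0.11 CPM, which covers counting error only. The targeted gene *Tnfaip2* had 16, 6 and 10 counts in WT, 5, 6 and 8 in KO and 25, 14 and 16 in KO_PAPC libraries. By edgeR's quasi-likelihood test it was higher in KO_PAPC than in KO (log2 fold change 1.72, adjusted p = 5.49e-05). It was also higher than in WT (0.95, adjusted p = 0.0164), though the libraries of these groups overlapped in CPM. In KO versus WT the gene was too rare to be tested. The counts of WT and KO were thus too few to check the labels, and a frameshift need not remove the transcript. The 10 markers summed to 227 to 235 CPM in WT, 149 to 157 CPM in KO and 329 to 335 CPM in KO_PAPC libraries, against 2130 to 2188, 3704 to 3739 and 1777 to 1836 CPM for 10 pluripotency genes. *Sox1* and *Tubb3* made up the largest parts of the marker sums. Their means in WT, KO and KO_PAPC were 71.7, 18.5 and 120 CPM for *Sox1* and 69.3, 82.0 and 76.6 CPM for *Tubb3*. Because RNA was taken from whole EBs, fewer neural cells and less RNA per cell cannot be told apart.

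Of the SOX factors, *Sox1* (chr8:12395295-12400126 in GRCm38, plus strand) stood at 68.9, 71.1 and 75.0 CPM in the WT libraries, at 19.8, 18.2 and 17.7 CPM in KO and at 119, 119 and 120.3 CPM in KO_PAPC. The groups did not overlap, with KO lowest and KO_PAPC highest. *Sox3* (chrX:60891366-60893430, minus strand) had a different order, with 10.02, 10.96 and 10.21 CPM in WT, 12.9, 12.7 and 12.9 CPM in KO and 18.1, 19.4 and 17.9 CPM in KO_PAPC. Here WT was lowest, KO lay above it and KO_PAPC above both.

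Among the anterior homeobox genes, *Pax6* (chr2:105668900-105697364, plus strand) had 24.10, 23.15 and 24.05 CPM in WT, 5.78, 5.39 and 5.29 CPM in KO and 36.5, 37.0 and 37.2 CPM in KO_PAPC. *Lhx2* (chr2:38339281-38369733, plus strand) had 6.28, 6.58 and 6.92 CPM in WT, 2.03, 1.68 and 1.83 CPM in KO and 7.67, 7.42 and 7.82 CPM in KO_PAPC. Both were lowest in KO, and for *Lhx2* the gap between WT and KO_PAPC was narrow. *Six3* (chr17:85613608-85629302, plus strand) was rare, with 18, 22 and 16 counts in WT, 2, 2 and 6 in KO and 50, 51 and 62 in KO_PAPC, or means of 0.668, 0.116 and 1.96 CPM. The KO mean of *Six3* was close to the level that a count of 0 allows. *Zic1* (chr9:91358058-91365810, minus strand), a zinc finger factor, had 6.10, 5.90 and 6.74 CPM in WT, 0.350, 0.464 and 0.415 CPM in KO and 7.67, 7.05 and 7.75 CPM in KO_PAPC. Its KO libraries held 10, 13 and 12 reads, against 164 or more in every other library.

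*Gbx2* (chr1:89927956-89931179, minus strand) had 12.1, 14.6 and 11.8 CPM in WT, 17.1, 17.5 and 16.0 CPM in KO and 14.8, 16.7 and 16.7 CPM in KO_PAPC. KO and KO_PAPC overlapped, and both lay above WT. *Neurog2* (chr3:127633135-127635631, plus strand) had 5, 2 and 3 counts in WT, 3, 1 and 1 in KO and 0, 1 and 0 in KO_PAPC. The proneural factor was thus near the limit of detection everywhere. Its WT libraries overlapped those of KO and lay above those of KO_PAPC.

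Of the cytoskeletal markers, the progenitor filament gene *Nes* (chr3:87971078-87980451, plus strand) had 31.6, 29.8 and 29.4 CPM in WT, 15.3, 15.9 and 14.2 CPM in KO and 47.1, 48.1 and 48.5 CPM in KO_PAPC. It followed *Sox1* and *Pax6* in order, without overlap between groups. The neuronal tubulin *Tubb3* (chr8:123411424-123422015, plus strand) had 66.6, 71.8 and 69.5 CPM in WT, 83.4, 82.6 and 80.1 CPM in KO and 76.2, 77.7 and 76.1 CPM in KO_PAPC. Its highest CPM lay in KO, and all values fell within a narrow range compared with those of the progenitor genes.

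**Figure D1:**
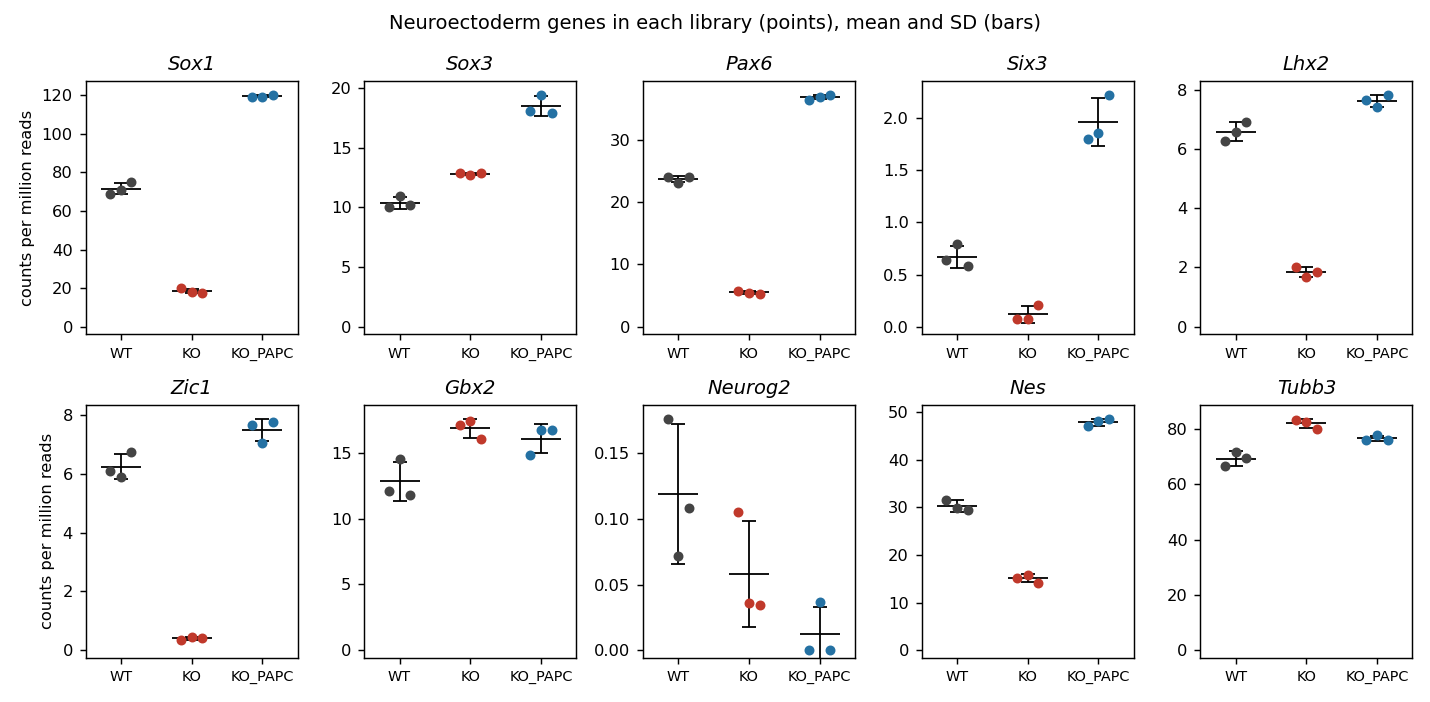
CPM of the 10 neuroectoderm genes (y axes, starting near 0, separate scale per gene) in WT, KO and KO_PAPC EBs (x axes). Points are single libraries and bars the mean and SD of 3. *Sox1*, *Pax6*, *Six3*, *Lhx2*, *Zic1* and *Nes* sit lowest in KO and highest in KO_PAPC, *Sox3* rises from WT to KO_PAPC, *Gbx2* and *Tubb3* are lowest in WT, and *Neurog2* reaches at most 0.176 CPM.

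RefSeq promoter windows on GRCm38.p6 were found for 9 of the 10 genes, in 11 windows, since *Pax6* and *Lhx2* had a pair each. The 250 bases before the start were read. Those of *Sox1* are not shown because most of them lie in its own exon. The *Six3* window lies inside the gene span given above, before a start further within it, and overlaps exons of the antisense gene *Gm28528*. The windows of 5 genes that were lowest in KO and highest in KO_PAPC are shown, without bases that lie in exons of protein-coding genes. The shown bases serve to show how different the starts of genes with this shared pattern were. They lie at chr2:105668646-105668895 (*Pax6*, plus strand), chr17:85620584-85620833 (*Six3*, plus strand), chr2:38339031-38339280 (*Lhx2*, plus strand), chr9:91365811-91366018 (*Zic1*, minus strand) and chr3:87970843-87971077 (*Nes*, plus strand), written 5′ to 3′ on the gene's strand. Capitals mark the GC box GGGCGG, the CCAAT box CCAAT, the SOX core ACAAT and the E-box CAGCTG on either strand.
Pax6: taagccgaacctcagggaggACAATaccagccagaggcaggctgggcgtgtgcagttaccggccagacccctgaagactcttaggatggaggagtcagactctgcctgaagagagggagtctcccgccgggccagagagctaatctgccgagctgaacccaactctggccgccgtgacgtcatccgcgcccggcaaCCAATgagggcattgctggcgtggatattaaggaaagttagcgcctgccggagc
Six3: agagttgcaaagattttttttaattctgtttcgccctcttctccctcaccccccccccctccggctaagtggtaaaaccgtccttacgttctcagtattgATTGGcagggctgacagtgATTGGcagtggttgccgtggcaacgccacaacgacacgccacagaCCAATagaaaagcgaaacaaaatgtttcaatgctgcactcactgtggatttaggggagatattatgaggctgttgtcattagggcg
Lhx2: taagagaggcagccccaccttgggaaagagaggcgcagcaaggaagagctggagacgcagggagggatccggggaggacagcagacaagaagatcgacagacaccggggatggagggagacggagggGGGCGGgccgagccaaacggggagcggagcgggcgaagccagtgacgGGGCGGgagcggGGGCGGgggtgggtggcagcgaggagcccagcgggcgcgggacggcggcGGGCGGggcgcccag
Zic1: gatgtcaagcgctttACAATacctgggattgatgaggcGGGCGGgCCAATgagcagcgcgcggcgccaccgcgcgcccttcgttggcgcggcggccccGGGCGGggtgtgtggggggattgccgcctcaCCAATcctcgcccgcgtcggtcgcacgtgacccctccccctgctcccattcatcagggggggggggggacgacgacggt
Nes: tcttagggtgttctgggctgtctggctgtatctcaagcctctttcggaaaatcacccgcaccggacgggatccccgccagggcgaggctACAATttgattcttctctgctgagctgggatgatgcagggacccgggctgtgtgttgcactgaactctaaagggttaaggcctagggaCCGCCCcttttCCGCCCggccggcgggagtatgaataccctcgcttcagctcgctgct
The GC box was present in 7 of the 11 windows, among them 4 copies at *Lhx2*, 2 each at *Zic1* and *Nes* and none at the *Six3* start, against 32.7% of 32851 windows of all genes. CCAAT was found in 5 windows (33.8% of all windows), with 3 copies at *Six3*, 2 at *Zic1* and 1 at *Pax6*. ACAAT, the core of sites that SOX proteins bind, was found in 5 windows (27.7% of all), once each at *Pax6*, *Zic1* and *Nes*. CAGCTG, a site of basic helix-loop-helix factors, was found in 1 window, that of *Gbx2* (13.0% of all), and neither the TATA box TATAAA (12.4% of all) nor the octamer ATGCAAAT (1.601% of all) was found in any. GC content ranged from 47.6% at a *Pax6* start to 72.8% at an *Lhx2* start, against a median of 52.4% over all windows. No motif was thus common to the genes lowest in KO, and motifs overlapped nowhere among the shown bases.

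The first comparison asked how loss of *Tnfaip2* bears on neuroectoderm genes in differentiating EBs. KO EBs had less RNA of the neural plate factors *Sox1* and *Pax6*, of *Zic1*, *Lhx2* and *Six3* and of the progenitor filament *Nes*, by 2.01-fold (*Nes*) to 15.1-fold (*Zic1*), and slightly more of *Sox3*, *Gbx2* and *Tubb3*, by at most 1.31-fold. By edgeR's quasi-likelihood test, 6 genes were lower and 3 higher at an adjusted p under 0.05 among the 9 tested, and *Neurog2* did not pass the filter on low counts. Across all tested genes 73.8% were called in this comparison, 37.1% lower and 36.8% higher, so that a call by itself set no gene apart. In all 9 tested genes the KO and WT libraries did not overlap in CPM, which 75.2% of tested genes shared. The median log2 fold change of the 9 genes was -1.83, against -0.0059 over all tested genes.

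*Sox1* fell by 1.95 on the log2 scale (SE 0.0465, adjusted p = 7.23e-28), and 1.40% of tested genes had a lower log2 fold change. *Pax6* fell by 2.11 (SE 0.0683, adjusted p = 4.87e-24), close to *Sox1* although its level was lower. The largest decrease was that of *Zic1*, which fell by 3.92 (SE 0.172, adjusted p = 2.92e-20), and only 0.0519% of tested genes had a lower value. *Lhx2* fell by 1.83 (SE 0.119, adjusted p = 1.46e-15). *Six3* fell by 2.47 (SE 0.417, adjusted p = 2.97e-06), from 56 to 10 counts over 3 libraries each, a ratio of 0.175 with an exact 95% interval of 0.0796 to 0.346 for counting error. KO replicate 3 held 6 of those 10 reads, and without it *Six3* was at -3.16 (adjusted p = 4.57e-06). *Nes* fell by 1.004 (SE 0.055, adjusted p = 1.35e-17), the smallest of the 6 decreases.

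The increases were smaller. *Gbx2* rose by 0.39 (SE 0.0694, adjusted p = 5.72e-06), *Sox3* by 0.30 (SE 0.0679, adjusted p = 0.000173) and *Tubb3* by 0.24 (SE 0.0341, adjusted p = 9.91e-08). The value of *Sox3* depended on the correction, from 0 relative to the median of its chromosome to 0.72 with offsets for GC content and length (adjusted p = 2.52e-17), and *Tubb3* was at 0.48 relative to its chromosome (adjusted p = 1.78e-14). These sizes were common, as 22.6% of tested genes had a higher log2 fold change than *Gbx2* and 31.3% a higher value than *Tubb3*. When a change beyond 2-fold was required, 5 of the 6 decreases still passed (all but *Nes*), whereas none of the 3 increases did, while 9.14% of all tested genes passed, 3.79% lower and 5.36% higher. *Neurog2*, with 10 counts in WT and 5 in KO, had a ratio of 0.49 (exact 95% interval 0.131 to 1.57) and an adjusted p of 0.389 when fitted without the filter.

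The second comparison asked what differed in KO EBs grown with PA/PC, with the limit on the medium of the drops given above. *Sox1*, *Pax6*, *Zic1*, *Six3*, *Lhx2* and *Nes* had more RNA in KO_PAPC than in KO EBs, by 3.56-fold (*Nes*) to 20.3-fold (*Zic1*), and *Sox3* was 1.62-fold higher. These 7 genes were called higher by edgeR's quasi-likelihood test, none lower, and *Tubb3* and *Gbx2* did not pass. Of all tested genes 81.8% were called, 39.6% higher and 42.2% lower. The median log2 fold change of the 9 tested genes was 2.21, against -0.017 over all tested genes. The libraries did not overlap in CPM for 8 of the 9 genes, as for 82.1% of tested genes. This comparison shares its KO libraries with the first, so the decreases there and the increases here are not independent of each other.

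*Sox1* rose by 2.86 on the log2 scale (SE 0.0416, adjusted p = 1.19e-36) and *Pax6* by 2.92 (SE 0.0636, adjusted p = 3.47e-31), and fewer than 0.63% of tested genes had a higher value. *Zic1* rose by 4.34 (SE 0.165, adjusted p = 1.17e-23) and *Six3* by 4.18 (SE 0.321, adjusted p = 1.81e-14). For both, the fold rests on the few KO reads, and the count ratio of *Six3*, 163 against 10, was 16.8 with an exact 95% interval of 8.90 to 35.7. Without KO replicate 3 *Six3* was at 4.87 (adjusted p = 2.73e-14). *Lhx2* rose by 2.21 (SE 0.117, adjusted p = 3.20e-19), *Nes* by 1.83 (SE 0.0505, adjusted p = 5.56e-28) and *Sox3* by 0.69 (SE 0.0621, adjusted p = 1.26e-12). With offsets for GC content and length the rise of *Sox3* was 0.20 (adjusted p = 0.00245), and relative to the X chromosome median it was 1.17 (adjusted p = 3.97e-19). At a required change beyond 2-fold 6 of the 7 increases passed (all but *Sox3*), as did 20.7% of all tested genes, 6.26% in that direction.

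The neuronal tubulin gene and *Gbx2* were not called. *Tubb3* differed by 0.068 on the log2 scale (95% interval -8.38e-05 to 0.14, adjusted p = 0.0609) and *Gbx2* by 0.10 (95% interval -0.03 to 0.23, adjusted p = 0.145). The sign for *Tubb3* depended on the scaling. Its CPM by library total was lower in every KO_PAPC than in every KO library, whereas its CPM scaled by TMM factors, which adjust for the make-up of the libraries, averaged 83.0 in KO_PAPC and 78.9 in KO. With library totals in place of TMM, *Tubb3* was called lower (log2 fold change -0.098, adjusted p = 0.00805) and *Gbx2* changed sign without being called (-0.067, adjusted p = 0.329). The 6 genes that rose by over 3-fold were lowest in KO and highest in KO_PAPC under either scaling. *Neurog2* had 1 count in KO_PAPC against 5 in KO, a ratio of 0.206 (exact 95% interval 0.00436 to 1.84).

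The third comparison set the treated knockout EBs against WT EBs. These groups differed in the clone, in PA/PC and, as the methods describe, in the medium of the drops. The parts of these in any difference cannot be told apart. All 9 tested neuroectoderm genes were higher in KO_PAPC than in WT EBs, by 1.24-fold (*Tubb3*) to 3.28-fold (*Six3*), with a median log2 fold change of 0.80 against -0.017 over all tested genes. All 9 were called by edgeR's quasi-likelihood test, where 70.6% of tested genes were called, 34.2% higher and 36.4% lower. None of the 9 overlapped between the groups in CPM, as for 73% of tested genes. The comparison shares its libraries with both others. *Six3* rose by 1.71 (SE 0.207, adjusted p = 6.70e-08), *Sox3* by 0.99 (SE 0.0662, adjusted p = 1.26e-12) and *Sox1* by 0.90 (SE 0.0352, adjusted p = 3.20e-17). *Nes* rose by 0.82 (SE 0.0445, adjusted p = 2.11e-14) and *Pax6* by 0.80 (SE 0.0469, adjusted p = 1.03e-13).

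Smaller differences from WT were those of *Gbx2* at 0.49 (SE 0.0763, adjusted p = 3.34e-06), *Zic1* at 0.43 (SE 0.0899, adjusted p = 0.000167), *Lhx2* at 0.38 (SE 0.0856, adjusted p = 0.00038) and *Tubb3* at 0.31 (SE 0.0367, adjusted p = 4.81e-08). Levels of *Zic1* and *Lhx2* in KO_PAPC thus lay closer to WT than did those of *Sox1*, *Pax6* and *Nes*, with 95% intervals up to 0.61 and 0.55 against at least 0.70. With library totals in place of TMM all 9 were still called higher, with smaller values, namely 0.33 for *Gbx2* (adjusted p = 0.000512), 0.26 for *Zic1* (adjusted p = 0.0117), 0.21 for *Lhx2* (adjusted p = 0.0299) and 0.15 for *Tubb3* (adjusted p = 0.00111), and a median of 0.64. Relative to its chromosome *Tubb3* was at 0.17 (adjusted p = 0.000223). Only *Six3* passed when a change beyond 2-fold was required, as did 8.02% of all tested genes, 0.961% in that direction. *Neurog2* went the other way, with 1 count in KO_PAPC against 10 in WT, a ratio of 0.101 (exact 95% interval 0.00233 to 0.709), and its adjusted p without the filter was 0.0531.

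**Figure D2:**
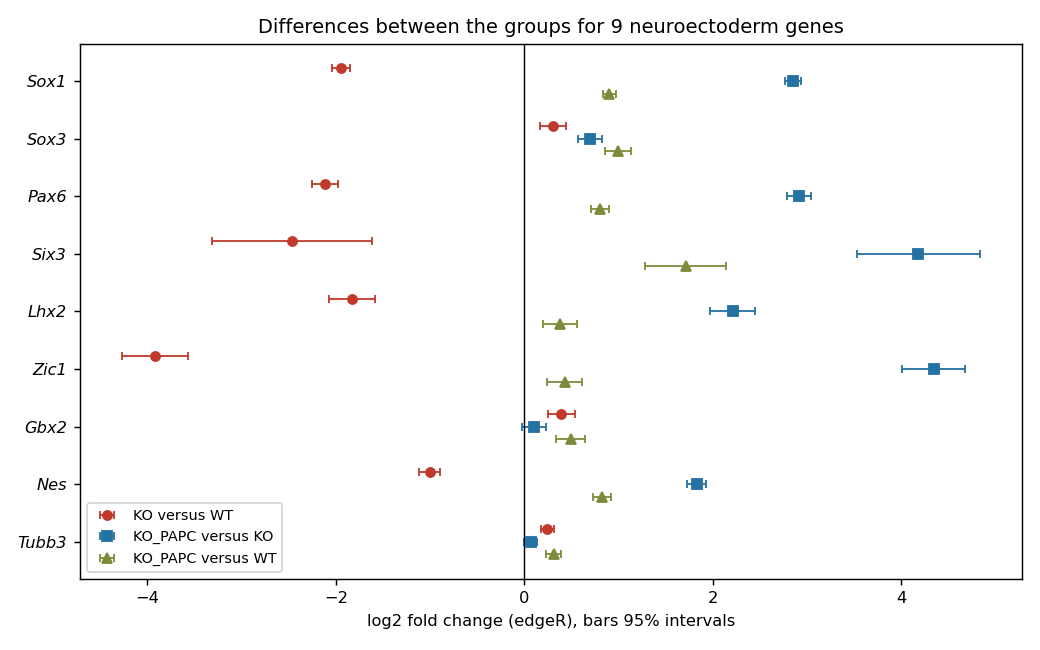
Log2 fold changes (x axis) of the 9 tested neuroectoderm genes (y axis) in the 3 comparisons, with 95% intervals as bars. The 6 genes with decreases in KO versus WT lie between -3.92 and -1.004 there and between 1.83 and 4.34 in KO_PAPC versus KO, while *Sox3*, *Gbx2* and *Tubb3* lie to the right of 0 throughout, with intervals that reach 0 for *Gbx2* and *Tubb3* in KO_PAPC versus KO.

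Per exon length, as TPM (counts divided by exon length and scaled to the same sum in each library), the order of the markers differed between groups. In WT EBs *Tubb3* was highest at 131 ± 4.61 TPM (SD, n = 3), followed by *Sox1* at 52.3 ± 2.15 TPM, *Gbx2* at 20.8 ± 2.42 TPM, *Sox3* at 17.8 ± 0.817 TPM and *Nes* at 16.7 ± 0.697 TPM. *Sox3* and *Nes* overlapped and cannot be ranked. *Pax6* at 7.17 TPM, *Lhx2* at 5.29 TPM, *Zic1* at 3.87 TPM, *Six3* at 0.433 TPM and *Neurog2* at 0.189 TPM followed without overlap between neighbours. In KO EBs *Sox1* dropped to the fourth place with 13.6 ± 0.759 TPM, behind *Tubb3* (156 ± 2.75 TPM), *Gbx2* (27.4 ± 1.16 TPM) and *Sox3* (21.998 ± 0.173 TPM). *Pax6* at 1.66 TPM and *Lhx2* at 1.49 TPM overlapped there, as did *Neurog2* at 0.0928 TPM and *Six3* at 0.0758 TPM. In KO_PAPC EBs *Sox1* was again second with 86.7 ± 0.677 TPM, and *Sox3* (31.3 ± 1.27 TPM) came before *Nes* (26.1 ± 0.336 TPM) and *Gbx2* (25.9 ± 1.64 TPM), which overlapped. *Tubb3* was first in each group, at 144 ± 1.04 TPM in KO_PAPC.

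**Figure D3:**
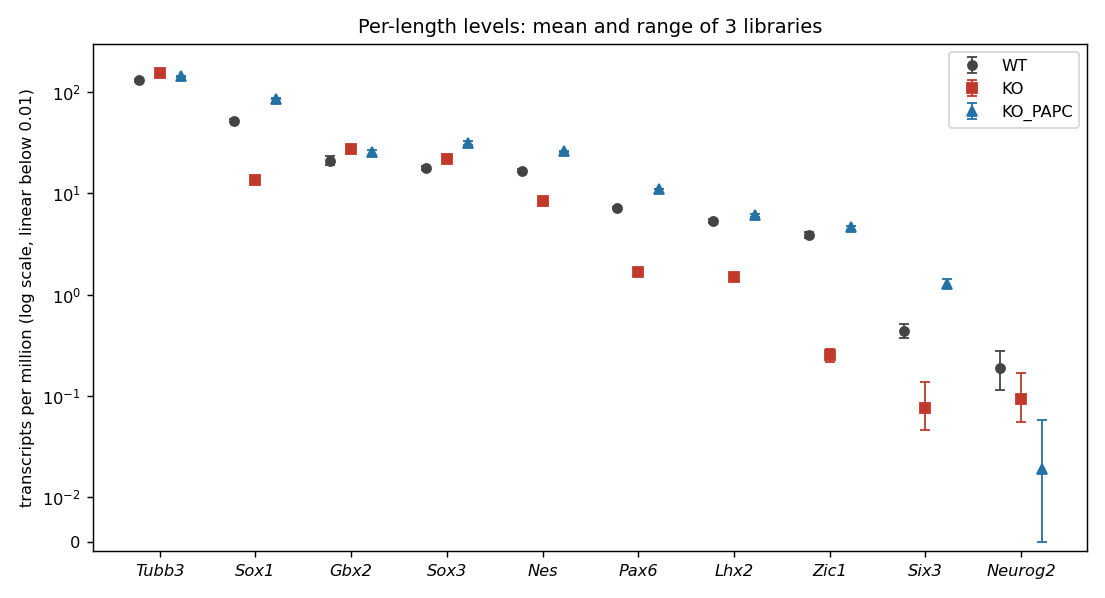
Level per exon length of each neuroectoderm gene (x axis, ordered by WT) in TPM (y axis, log scale above 0.01), with the mean of 3 libraries as symbols and their lowest and highest value as bars. *Tubb3* leads in all 3 groups, *Sox1* falls from the second place in WT to the fourth in KO, and *Six3* and *Neurog2* lie at the bottom, apart from *Six3* in KO_PAPC at 1.26 TPM.

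Annotation touches some of these levels. The library kit did not mark strand, and 43.5% of the exon length of *Gbx2* lay under exons of the opposite-strand transcript *D130058E05Rik*. Whether reads there were dropped or given to either gene depends on the strand setting of the counting, which is not stated for these libraries, so the levels of both are uncertain. That transcript had 3.88, 2.35 and 5.13 CPM in WT, KO and KO_PAPC and changed by -0.72 (adjusted p = 6.93e-06) in KO versus WT and 1.29 (adjusted p = 6.51e-12) in KO_PAPC versus KO, in the first case opposite to *Gbx2*. The overlap was 5.03% for *Six3*, 1.78% for *Sox1* and 1.05% for *Zic1*, and 0 for the other 6 genes. The neighbouring transcripts named next were chosen after their values were seen. *Six3os1*, which starts opposite *Six3*, had 1.19, 0.117 and 1.95 CPM and changed by -3.30 (adjusted p = 2.25e-10) in KO versus WT and 4.17 (adjusted p = 2.53e-14) in KO_PAPC versus KO. *Sox1ot*, which overlaps *Sox1*, had 0.919, 0.223 and 1.01 CPM and changed by -2.03 (adjusted p = 8.71e-07) and 2.33 (adjusted p = 2.83e-08). *Zic4*, the head-to-head neighbour of *Zic1*, changed by 3.18 (adjusted p = 3.57e-06) in KO_PAPC versus KO and was too rare to be tested in KO versus WT.

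Genes of some chromosomes were shifted together in these comparisons, and the markers are read against that. On chromosome 8, which carries *Sox1* and *Tubb3*, the median log2 fold change over 919 tested genes was -0.23 in KO versus WT, and over 914 genes it was 0.43 in KO_PAPC versus KO. On the X chromosome, which carries *Sox3*, the medians were 0.30 (673 genes) and -0.48 (660 genes). The rise of *Sox3* in KO versus WT was thus no larger than the X median, whereas its rise in KO_PAPC versus KO ran against it. *Tubb3* rose in KO while its chromosome fell, and relative to the chromosome 8 median it was lower in KO_PAPC than in KO (-0.37, adjusted p = 2.70e-12). For *Sox1*, *Pax6*, *Nes*, *Zic1*, *Six3* and *Lhx2* the changes in the first and second comparison were several times the shift of their chromosomes, which was at most 0.43. What moved the chromosomes was not tested.

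The genes most like each marker over the 9 libraries were sought among 13105 protein-coding genes by the root mean square difference of centred log2 CPM, as a description. *Sox1* and *Pax6* were the nearest gene to each other, 0.0593 apart. *Sox1* was further followed by *Ddit4* (582, 165 and 984 CPM in WT, KO and KO_PAPC), a stress-induced inhibitor of mTOR signalling, and by the homeobox gene *Msx1*, and *Pax6* by *Sall2* and *Tmem145*. *Nes* lay closest to the small GTPase genes *Arl4c* and *Arl4a* and to *Lin28b*, which blocks let-7 maturation, and *Lhx2* to *Akr1e1*, the cartilage and notochord collagen *Col2a1* and the WNT inhibitor *Sfrp1*. *Zic1* had no equally close neighbour, with *A2m* at 0.149, *Id2* at 0.164 and *Cdk5r2* at 0.174. *Sox3* lay nearest to the FGF feedback inhibitor *Spry4*, the neuronal filament gene *Ina* and *Myrf*, *Gbx2* nearest to *Acot7*, *Slc29a4* and *Sh3bp4*, and *Tubb3* nearest to *Usp10*, *Akr1b3* and *Coro1c*.

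Other neural genes were read from lists by role. The counts of this and every list that follows stand beside the shares over all tested genes. Of these, 37.1% were lower and 36.8% higher in KO versus WT, and 39.6% were higher and 42.2% lower in KO_PAPC versus KO. Of 16 neural progenitor genes, 14 were lower and 2 higher in KO than in WT (median log2 fold change -1.39), and 14 were higher and 1 lower in KO_PAPC than in KO (median 2.15). The largest changes were a fall of *Sox11*, a SOXC factor of early neurons, by 2.15 in KO (adjusted p = 1.66e-31) and a rise of *Hes3*, a repressor of neuronal differentiation, by 3.69 with PA/PC (adjusted p = 6.38e-15). *Sall3* went against the list, with 0.63 in KO versus WT (adjusted p = 1.09e-12) and -0.34 in KO_PAPC versus KO (adjusted p = 3.25e-07). In each comparison most of the list thus had the direction of *Sox1*, *Pax6* and *Nes*.

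Close relatives of the SOX and ZIC markers did not move as a block. Of 5 tested in KO versus WT 4 were higher and 1 lower, with *Sox21* at 1.16 (adjusted p = 3.87e-21) and *Zic2* at -0.28 (adjusted p = 1.02e-09). In KO_PAPC versus KO 3 of 6 were higher, led by *Zic2* at 1.24 (adjusted p = 1.02e-29), and 3 lower, led by *Sox21* at -3.00 (adjusted p = 5.48e-31). *Sox21*, which opposes the SOXB1 proteins, therefore had its highest level in KO, where *Sox1* was lowest.

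Regional genes were mostly lower in KO. Of 9 tested forebrain genes 7 were lower and none higher, with *Lhx5* at -3.11 (adjusted p = 8.03e-15), and 5 were higher and 2 lower with PA/PC, with the eye field gene *Six6* at 4.03 (adjusted p = 4.12e-23). Of 16 tested midbrain, hindbrain and caudal genes 12 were lower and 2 higher in KO, with *En1*, a midbrain-hindbrain factor, at -3.16 (adjusted p = 9.74e-21), and 15 of 17 were higher with PA/PC, with *Nkx1-2* of the caudal neural plate at 4.08 (adjusted p = 1.67e-23). *Pax8* moved the other way, by 0.81 (adjusted p = 1.47e-05) and -0.41 (adjusted p = 0.00898). All 7 tested dorsoventral genes were lower in KO and all 5 tested were higher with PA/PC, with *Msx1* at -2.18 (adjusted p = 2.88e-16) and 3.11 (adjusted p = 1.93e-23). Most anterior and caudal genes thus shared the direction of *Pax6*, *Six3* and *Lhx2*.

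Genes of later steps of neurogenesis, to which *Neurog2* and *Tubb3* belong, were divided in KO versus WT, and most of those tested were higher with PA/PC. Of 10 tested proneural and Notch genes 6 were lower and 3 higher in KO, and 8 of 12 were higher and 3 lower with PA/PC. *Hes6*, which promotes neurogenesis, changed by -1.66 (adjusted p = 4.02e-23) and 2.39 (adjusted p = 5.82e-30), and the receptor gene *Notch1* by 0.95 (adjusted p = 4.42e-19) and -1.43 (adjusted p = 4.93e-23). Of 15 neuron genes 8 were lower and 5 higher in KO (median -0.16), and 12 were higher and 3 lower with PA/PC (median 0.93). The neurofilament gene *Nefl* fell by 1.51 in KO (adjusted p = 3.93e-16) while *Ina* rose by 0.44 (adjusted p = 1.03e-12), and among tubulin genes *Tubb4a* rose by 1.80 with PA/PC (adjusted p = 2.25e-18) while *Tubb2a* fell by 1.31 (adjusted p = 6.80e-19). Of 8 neural crest genes 4 were lower and 2 higher in KO and 3 were higher and 3 lower with PA/PC. These counts were not far from the shares over all tested genes. Among them *Foxd3* was at -1.57 (adjusted p = 1.98e-21) and 2.43 (adjusted p = 2.77e-29) and *Ngfr* at 1.91 (adjusted p = 3.20e-28) and -2.53 (adjusted p = 1.40e-32).

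Of 7 tested inhibitors of BMP signalling, which keeps ectoderm from turning neural, 6 were lower and 1 higher in KO, and 5 of 8 were higher and 2 lower with PA/PC. *Fst*, which encodes follistatin, fell by 2.66 in KO (adjusted p = 1.10e-25) and rose by 3.17 with PA/PC (adjusted p = 4.09e-31), whereas *Smad6* changed by 0.68 (adjusted p = 7.72e-09) and -0.87 (adjusted p = 6.12e-11). More surface ectoderm genes went the other way than not, with 7 of 12 tested higher and 3 lower in KO. With PA/PC 9 of 12 were lower and 3 higher. Those that went the other way were led by *Tfap2c* at 2.45 (adjusted p = 1.85e-36) and -3.26 (adjusted p = 1.04e-40), a factor also known from trophoblast and germ cells. Of the called genes that did not follow them, *Tfap2a* changed most, at -0.64 (adjusted p = 2.60e-06) and 1.005 (adjusted p = 4.05e-10).

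Markers of other cell types moved beside the neuroectoderm genes. Of 10 pluripotency genes 9 were higher and none lower in KO (median 1.01), and 9 were lower and 1 higher with PA/PC (median -1.56). *Dppa3* changed by 1.65 (adjusted p = 2.27e-23) and -3.17 (adjusted p = 4.64e-30), and *Pou5f1* was the gene that was higher with PA/PC, by 0.44 (adjusted p = 1.33e-18). Of 10 endoderm genes 8 were lower and 2 higher in KO, and all 10 were lower with PA/PC (median -2.62), with a summed level of 862 to 928 CPM in WT, 479 to 485 CPM in KO and 80.7 to 81.6 CPM in KO_PAPC. *Sox7* fell by 1.43 in KO (adjusted p = 7.02e-19), and *Afp* changed by 1.21 (adjusted p = 7.69e-15) and -3.09 (adjusted p = 6.73e-23). Mesoderm genes split, with 3 of 8 tested higher and 4 lower in KO and 4 of 7 higher and 3 lower with PA/PC. These counts were not far from the shares over all tested genes. With PA/PC *T* was higher by 5.87 (adjusted p = 1.21e-28) and *Hand1* lower by 4.19 (adjusted p = 1.33e-18). In KO versus WT *T* was at -2.69 (adjusted p = 2.96e-11) and *Hand1* at 2.54 (adjusted p = 1.60e-15). The loss of endoderm RNA with PA/PC and the gain of neuroectoderm RNA occurred in the same libraries, and the part of either in the other was not tested.

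**Figure D4:**
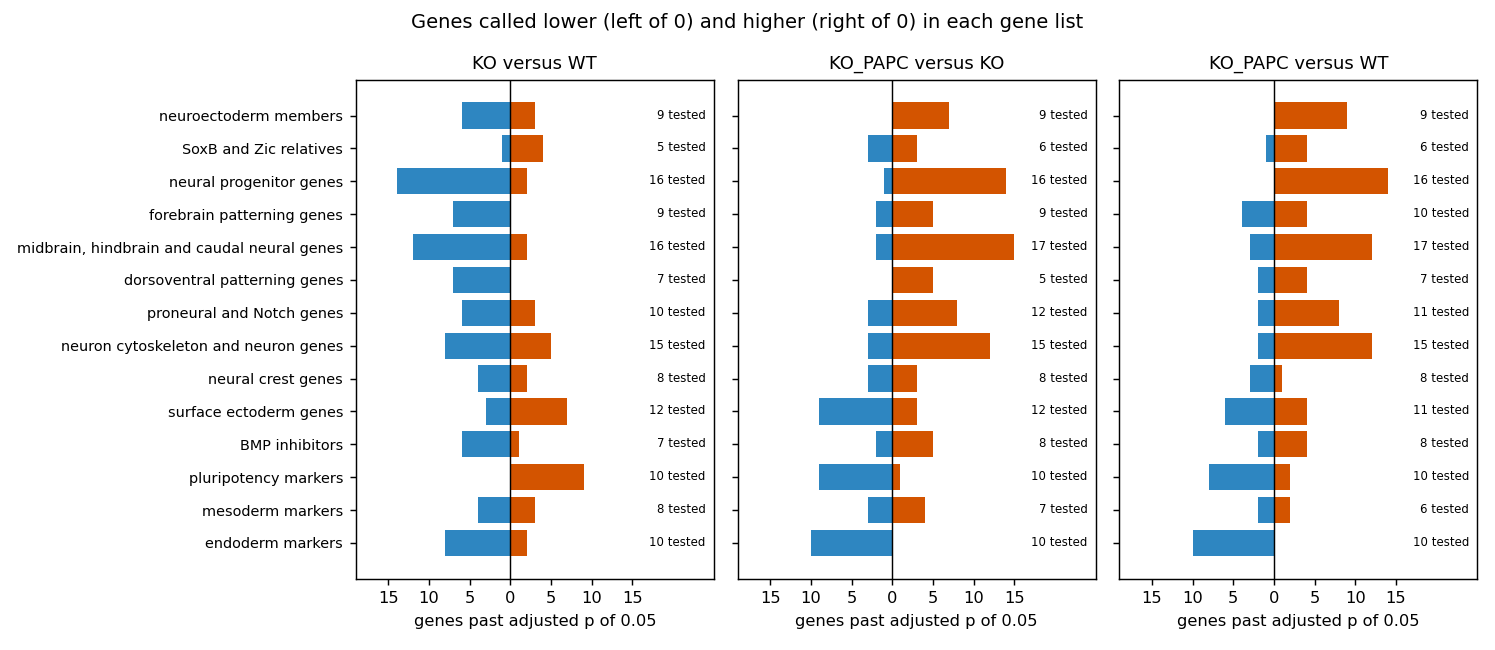
Number of genes (x axis) called higher (right of 0) or lower (left of 0) at an adjusted p under 0.05 in each gene list (y axis) and comparison (panels), with the number tested at the right. The neuroectoderm bar reads 6 lower and 3 higher in KO versus WT, 7 higher in KO_PAPC versus KO and 9 higher in KO_PAPC versus WT, and that of the neural progenitor genes 14 lower, then 14 higher, while 10 endoderm genes are lower in both comparisons of KO_PAPC. Over all tested genes, 37.1% were lower and 36.8% higher in KO versus WT. The shares lower and higher were 42.2% and 39.6% in KO_PAPC versus KO, and 36.4% and 34.2% in KO_PAPC versus WT.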

How the data were processed

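RNA of 9 libraries (3 each of WT, KO and KO_PAPC EBs) had been sequenced by the authors as 51-cycle single-end reads from unstranded libraries. The deposited values were raw read counts per Ensembl gene on GRCm38, made with STAR 2.7.2b and featureCounts 1.6.5 per the labels. For the WT comparison the methods name an older TopHat2 pipeline, and which one made the WT columns is not known. Only uniquely mapped reads were counted. The methods refer to another experiment of the study for the counting options, and the strand setting used for these unstranded libraries is not stated. No column of per-sample values was left unused (0).

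Here genes were annotated with GENCODE M21 (241 of 55471 IDs had no match) and tested with edgeR 4.0.16 under R 4.3.3, by its quasi-likelihood F test (TMM factors, filterByExpr, Benjamini-Hochberg over all tested genes, adjusted p under 0.05), each comparison on its own 6 libraries. SEs and 95% intervals of log2 fold changes came from the F statistic. The study's own tool, DESeq2 (version 1.42.0 here), was an alternative. CPM used library totals. Likeness used log2(CPM + 0.5) and genes of at least 1 CPM on average. Intervals of count ratios were exact binomial (scipy 1.17.1) and cover counting error only. The fits were tested on simulated data.

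All 10 markers were named, and of each other list the largest rise and fall among called genes of at least 2 CPM in a group. The markers and lists were chosen with earlier results of these data known. Labels gave no batch. Libraries of KO and KO_PAPC are described as independent pools of EBs, all from a single clone, so p-values measure the spread between pools. Replicate numbers did not pair the libraries (correlations of deviations from -0.0415 to 0.0621).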

Additional observations from a re-analysis of the deposited data

How the results depend on the processing

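Directions and calls held in 411 of 432 alternatives for single markers, 14 lost the call (13 of them by requiring a change beyond 2-fold), 4 gained it and 3 reversed. The reversals were those of *Tubb3* in KO_PAPC versus KO with library totals (-0.098) and relative to its chromosome (-0.37) and of *Gbx2* with library totals (-0.067), and *Tubb3* was then called lower, making 1 marker lower under each of the former settings. The median log2 fold change of the markers in KO versus WT was -1.43 with DESeq2 and -1.43 without the filter, which adds *Neurog2*. In KO_PAPC versus KO it was 2.03 with DESeq2, 2.04 with library totals, 2.04 without the filter and 2.36 relative to the chromosome. Requiring a change beyond 2-fold left 0 markers higher in KO versus WT and 1 higher in KO_PAPC versus WT. Leaving out each library in turn gave medians of -1.90 to -1.77 in KO versus WT, 2.14 to 2.28 in KO_PAPC versus KO and 0.78 to 0.81 in KO_PAPC versus WT, with 3 higher and 6 lower, 7 to 9 higher and 9 higher. The count of 9 arose without KO_PAPC replicate 1, where *Tubb3* (0.084, adjusted p = 0.0225) and *Gbx2* (0.17, adjusted p = 0.0178) were called higher. *Tubb3* was also called higher in KO_PAPC versus KO without the filter (0.092, adjusted p = 0.0239) and with offsets for GC content and length (0.11, adjusted p = 0.000509). For single markers, log2 fold changes moved by over 1.5 times for *Sox3* (GC content and length, chromosome). *Tubb3* did so with library totals, relative to its chromosome and with offsets for GC content and length. *Gbx2*, *Zic1* and *Lhx2* did so with library totals, as given with each comparison. In KO_PAPC versus KO *Gbx2* was also at 0.020 relative to its chromosome and at 0.059 without KO replicate 3. *Six3* without KO replicate 3 moved less, from -2.47 to -3.16 in KO versus WT and from 4.18 to 4.87 in KO_PAPC versus KO. With the replicate number as a block the medians were -1.83, 2.21 and 0.80, and no call of a marker changed. Depth limits *Neurog2* (at most 5 counts a library) and *Six3* in KO (2 to 6 counts).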
